A study of Homo sapiens with 6 samples.

Results

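The genes described here are 8 receptors that steer T cells between blood, lymph node and tissue, CCR9, CCR7, CCR4, CCR6, CXCR3, CXCR4, S1PR1 and S1PR4, together with KLF2, a transcription factor that controls several of them. They are 9 of the 39012 genes of the deposited table. The genes were chosen by their place in one family and by the measured EV and SCML4 levels of this same comparison, with the low CCR9 and CCR7 of the SCML4 libraries known, so the differences between the groups are given as a description and support nothing by themselves. All 6 libraries came from Jurkat cells, an established human T cell leukaemia line whose cell type the labels give as "Ouabain-induced leukemia cell line". The 3 control libraries, labelled EV, and the 3 libraries labelled SCML4, from a stable SCML4 overexpression line (SCML4 is a Polycomb group protein), had all been treated for 6 h with 100 ng/ml PMA and 1 µM ionomycin. Together these compounds imitate a T cell receptor signal, PMA through protein kinase C and ionomycin through calcium. No unstimulated cells were compared here. The sources used here do not name the vector or its promoter, nor whether a line was 1 clone or a pool. Separate cultures are not stated either, and the spread that the p-values rest on may thus be technical.

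Chemokine receptors are receptors of the cell surface that couple to inhibitory G proteins and make a cell crawl towards the source of their ligand. CCR7 guides naive T cells into lymph nodes, CCR9 guides thymocytes and gut T cells, and CXCR4 binds CXCL12 of bone marrow and thymus. S1PR1 reads the lipid sphingosine 1-phosphate (S1P), which is abundant in blood and lymph, and lets T cells leave lymphoid organs. KLF2 keeps S1PR1 and the lymph node homing genes active in resting T cells, and strong T cell activation is known to lower KLF2 and S1PR1.

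Levels are given as reads recovered from the steps of the deposited FPKM values and as CPM, reads per 1000000 reads of the library. Libraries held 8953671 to 10336597 reads. SCML4 itself had 7, 2 and 1 reads in EV and 570, 657 and 506 reads in SCML4, as labelled. All 10 T cell markers checked were present at 1 CPM or more, with a sum of 2770 to 3000 CPM in EV and 3050 to 3100 CPM in SCML4. Of 30 markers of 7 other cell types, B cell, NK cell, myeloid, erythroid, epithelial, fibroblast and endothelial, 29 were in the table, and 13 of these had 0 reads in every library. CD79A, a B cell marker, stood out at 28.7 CPM on average, while PAX5, the defining B cell factor, had 0 reads. EV replicate 1 lay far from the rest, at -32.9 on the first principal component against 2.36 to 8.49, and its deviations across 14147 genes followed transcript GC content with a Spearman coefficient of -0.50 against 0.05 to 0.29 in the others. The differences of the tested members and of the named genes around them are therefore given with and without this library.

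The stretch of 250 bases upstream of the start was taken from RefSeq (GRCh38.p14), in which 8 of the 9 genes had an entry. It is shown for CCR9, the gene with the widest difference, and for KLF2 and S1PR1, a factor and its textbook target. Both lay lower in EV replicate 1 than in EV replicates 2 and 3. The same held for CXCR3, CCR7 and CCR4, so it is not particular to this pair. Capitals mark the letters CACCC, or GGGTG on the other strand, the core of the box that factors of the KLF family bind. The first listed start is used for CCR9, which has 2.
CCR9 (chr3:45886293-45886542, plus strand): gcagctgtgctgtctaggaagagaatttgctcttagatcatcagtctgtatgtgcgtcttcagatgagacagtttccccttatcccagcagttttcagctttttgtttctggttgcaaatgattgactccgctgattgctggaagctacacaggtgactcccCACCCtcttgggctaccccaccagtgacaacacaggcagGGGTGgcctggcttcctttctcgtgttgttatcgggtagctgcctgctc
S1PR1 (chr1:101236769-101237018, plus strand): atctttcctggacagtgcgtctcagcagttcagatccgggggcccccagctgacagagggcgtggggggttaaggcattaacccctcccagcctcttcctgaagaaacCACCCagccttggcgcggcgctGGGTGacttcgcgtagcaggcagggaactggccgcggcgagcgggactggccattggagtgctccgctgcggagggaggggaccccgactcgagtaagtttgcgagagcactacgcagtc
KLF2 (chr19:16324576-16324825, plus strand): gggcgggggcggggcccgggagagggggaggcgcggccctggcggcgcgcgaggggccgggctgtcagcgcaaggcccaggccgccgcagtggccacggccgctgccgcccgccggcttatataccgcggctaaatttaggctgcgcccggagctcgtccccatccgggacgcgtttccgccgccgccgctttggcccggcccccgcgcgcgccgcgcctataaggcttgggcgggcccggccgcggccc

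The window of CCR9 held 2 matches and that of S1PR1 2, while the KLF2 window held 0. At the first listed start, CCR4 and CXCR4 also held 2, S1PR4 6, CXCR3 1 and CCR6 0. Of 35116 such windows of all genes, 54.7% held at least 1 match and 23.1% held 2 or more. The GC content was 51.2% in the CCR9 window, 64.4% in that of S1PR1 and 80.0% in that of KLF2, against a median of 58% over all windows. A match is only a string of letters in this window.

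CCR9, the receptor for CCL25, a chemokine of thymus and small intestine, was lower in every SCML4 library than in any EV library. It stood at 33.3, 23.5 and 21.7 CPM in EV replicates 1, 2 and 3, from 321, 211 and 210 reads. In SCML4 it stood at 11.0, 15.0 and 12.2 CPM, from 100, 155 and 109 reads. The groups did not overlap, and EV replicate 1 was the highest of the 6 libraries. The means were 26.2 ± 6.25 CPM in EV and 12.7 ± 2.04 CPM in SCML4 (SD, n = 3 each), a ratio of 0.486. The difference on the log2(CPM + 0.5) scale, from limma-trend, was -1.0 with a standard error (SE) of 0.17, and -0.81 with an SE of 0.16 without EV replicate 1. Without that library the EV mean was 22.6 CPM and the ratio 0.563. Of 14160 genes tested, 759 (5.36%) had all 3 SCML4 libraries below all 3 EV libraries. CCR9 was one of 4 genes, or 0.0282% of those tested, with a difference that low, and one of 16 (0.113%) without EV replicate 1. It was chosen with this difference known, so its rank is a description only. In bulk RNA, fewer cells expressing a gene and less of its RNA per cell cannot be told apart.

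CCR9 overlaps LZTFL1, a gene of the opposite strand that encodes a protein of ciliary trafficking, and the counting is not stated to use strand. In the GENCODE 29 annotation the pair shares 0 exonic bases. LZTFL1, named because of this overlap, stood at 166, 121 and 119 CPM in EV and 102, 111 and 110 CPM in SCML4. Its groups did not overlap either, with a log2 difference of -0.31 (SE 0.11), or -0.16 (SE 0.07) without EV replicate 1. For each 100 LZTFL1 reads there were 20.1, 19.5 and 18.3 CCR9 reads in EV and 10.8, 13.6 and 11.1 in SCML4. The ratio was thus lower in all 3 SCML4 libraries, at 11.8 ± 1.5 against 19.3 ± 0.926 (mean ± SD, n = 3 each), and EV replicate 1 lay near the other EV libraries on it. How much LZTFL1 RNA contributed to the CCR9 reads was not tested.

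CCR7, the receptor for CCL19 and CCL21, was a low transcript in these cells. It had 24, 34 and 32 reads in EV and 8, 27 and 18 reads in SCML4. These correspond to 2.49, 3.79 and 3.31 CPM in EV and 0.883, 2.61 and 2.01 CPM in SCML4. The groups overlapped by 1 pair, EV replicate 1 lying below SCML4 replicate 2, and they did not overlap without EV replicate 1. The means were 3.20 ± 0.657 and 1.84 ± 0.878 CPM (SD, n = 3 each), with a log2 difference of -0.73 (SE 0.32), or -0.87 (SE 0.34) without EV replicate 1. Pooled over each group, 53 reads in SCML4 against 90 in EV gave a ratio of 0.587, and exact 95% limits for the counting error alone were 0.41 and 0.834. The value rests in part on SCML4 replicate 1, without which the log2 difference was -0.39.

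**Figure D1:**
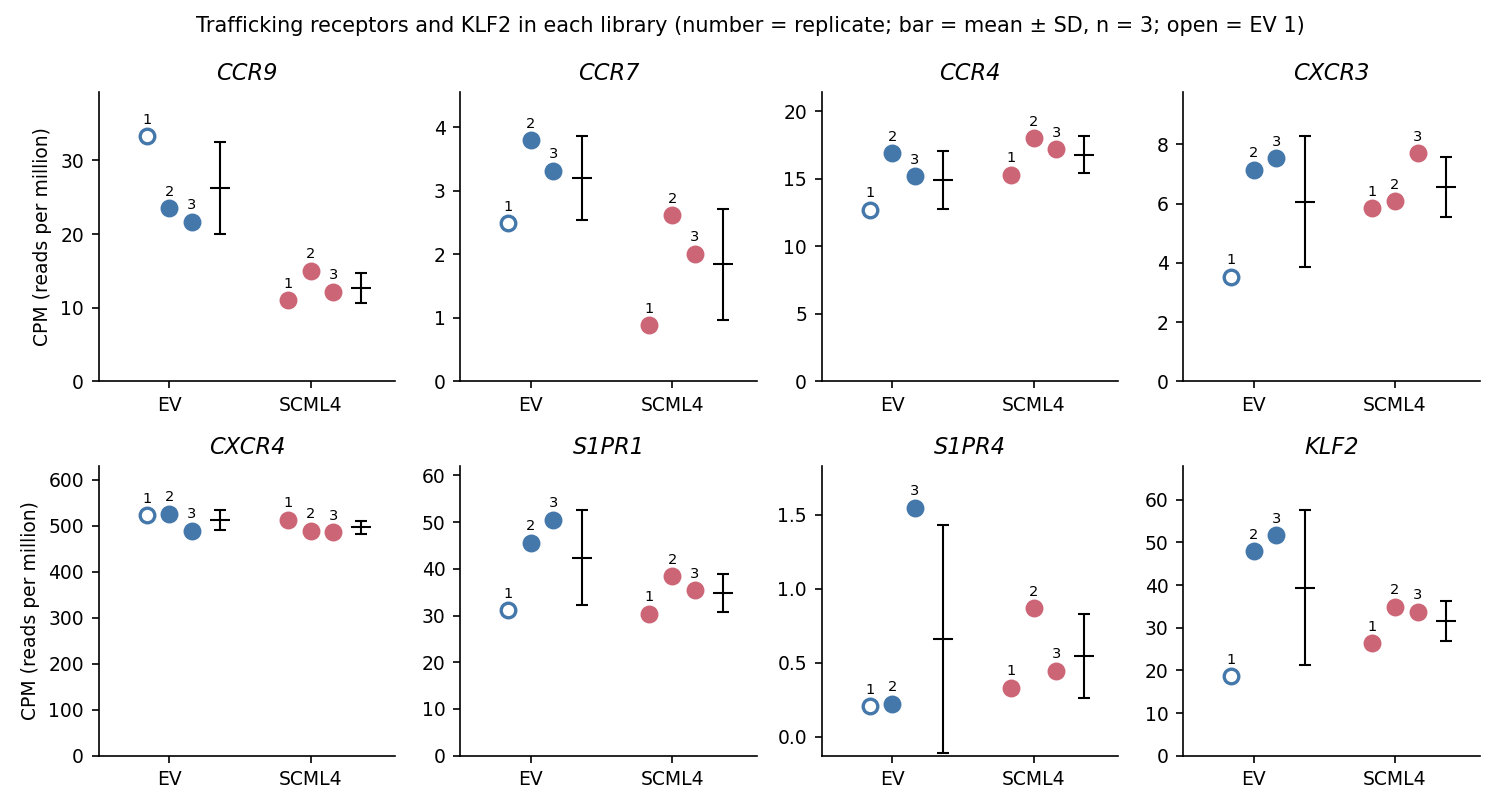
CPM of 8 of the 9 genes in each library, on linear axes, with EV in blue, SCML4 in red, the replicate number above each point and the mean ± SD (n = 3) beside each group. CCR6, with 0 reads throughout, is not drawn. In CCR9 the SCML4 points (11.0 to 15.0 CPM) lie below all EV points (21.7 to 33.3 CPM). In S1PR1 and KLF2 EV replicate 1, the open point, lies apart from EV replicates 2 and 3.

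CXCR4, the receptor for CXCL12, was by far the most abundant of the 9 genes and was at nearly the same level in all libraries. It stood at 523, 527 and 489 CPM in EV and 513, 490 and 486 CPM in SCML4. The groups overlapped, and EV replicate 1 lay within the range of the others. The log2 difference was -0.05 (SE 0.07, 95% interval -0.20 to 0.11), and -0.03 (SE 0.06) without EV replicate 1.

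CCR4, a receptor of skin-homing and type 2 helper T cells that binds CCL17 and CCL22, showed overlapping groups. It stood at 12.7, 16.9 and 15.2 CPM in EV and 15.3, 18.0 and 17.2 CPM in SCML4. EV replicate 1 was the lowest of the 6 libraries. The log2 difference was 0.17 (SE 0.15), and 0.07 (SE 0.14) without EV replicate 1.

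CXCR3, the receptor of type 1 helper and cytotoxic T cells for CXCL9, CXCL10 and CXCL11, had 34, 64 and 73 reads in EV and 53, 63 and 69 reads in SCML4. In CPM this was 3.53, 7.14 and 7.54 in EV and 5.85, 6.09 and 7.71 in SCML4. EV replicate 1 was again the lowest library and the groups overlapped. The sign of the difference turned on that library, with 0.16 (SE 0.26) over all 6 libraries and -0.16 (SE 0.21) without it.

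CCR6, the receptor of interleukin-17-producing T cells for CCL20, had 0 reads in all 6 libraries. For 0 reads the upper 95% limit for counting error alone is about 3 reads, which is 0.29 to 0.335 CPM depending on the library. In GENCODE 29, CCR6 shares 3008 of its 4346 exonic bases with Z94721.2, a transcript of the same strand. How the authors' counting treated reads in shared bases is not stated, so 0 reads may not mean that no RNA was sequenced.

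S1PR1, the egress receptor, stood at 31.1, 45.6 and 50.5 CPM in EV and at 30.4, 38.4 and 35.4 CPM in SCML4. EV replicate 1 lay among the SCML4 libraries, while EV replicates 2 and 3 lay above all of them. The log2 difference was -0.26 (SE 0.16) over all libraries and -0.47 (SE 0.11) without EV replicate 1. The EV mean was 42.4 CPM with that library and 48.1 CPM without it, against 34.8 ± 4.02 CPM in SCML4 (SD, n = 3).

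S1PR4, a lymphocyte S1P receptor of low affinity, was near the limit of detection. It had 2, 2 and 15 reads in EV and 3, 9 and 4 reads in SCML4, so that 15 of the 19 EV reads came from EV replicate 3. The pooled ratio was 0.84, with exact 95% counting limits of 0.404 and 1.72, and S1PR4 did not reach the mean of 10 reads required for the fit. No difference was detectable at this depth.

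KLF2 was the gene in which EV replicate 1 mattered most. It stood at 18.6, 47.9 and 51.7 CPM in EV, from 179, 430 and 500 reads. In SCML4 it stood at 26.3, 34.9 and 33.7 CPM, from 238, 361 and 302 reads. EV replicate 1 lay below all other libraries and EV replicates 2 and 3 above all others, with the SCML4 libraries between them. Over all libraries the log2 difference was -0.19 (SE 0.28), and without EV replicate 1 it was -0.66 (SE 0.12), the EV mean then being 49.8 CPM and the ratio 0.635. Without EV replicate 2 or 3 instead, the difference was 0.02 or 0.07, so that its direction depends on which EV library is left out.

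Of the 7 members that reached a mean of 10 reads, 5 had a lower mean in SCML4 and 2 a higher one, where 47.7% of all 14160 genes tested were lower. The median difference of the 7 was -0.19 against 0.01 for all genes. In 1 of them, CCR9, the groups did not overlap, with SCML4 lower. Among all genes 5.36% had SCML4 lower without overlap and 6.29% had it higher. Without EV replicate 1, 6 of the 7 were lower (48.2% of all genes) and the median was -0.47 against 0.01. The SCML4 libraries then lay below both remaining EV libraries in 4 genes, CCR9, CCR7, S1PR1 and KLF2, which holds for 10.0% of all genes. In each of these 4 genes SCML4 replicate 1 had the lowest value of its group and SCML4 replicate 2 the highest. These counts describe genes chosen with this comparison in view, and nothing is read from them.

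**Figure D2:**
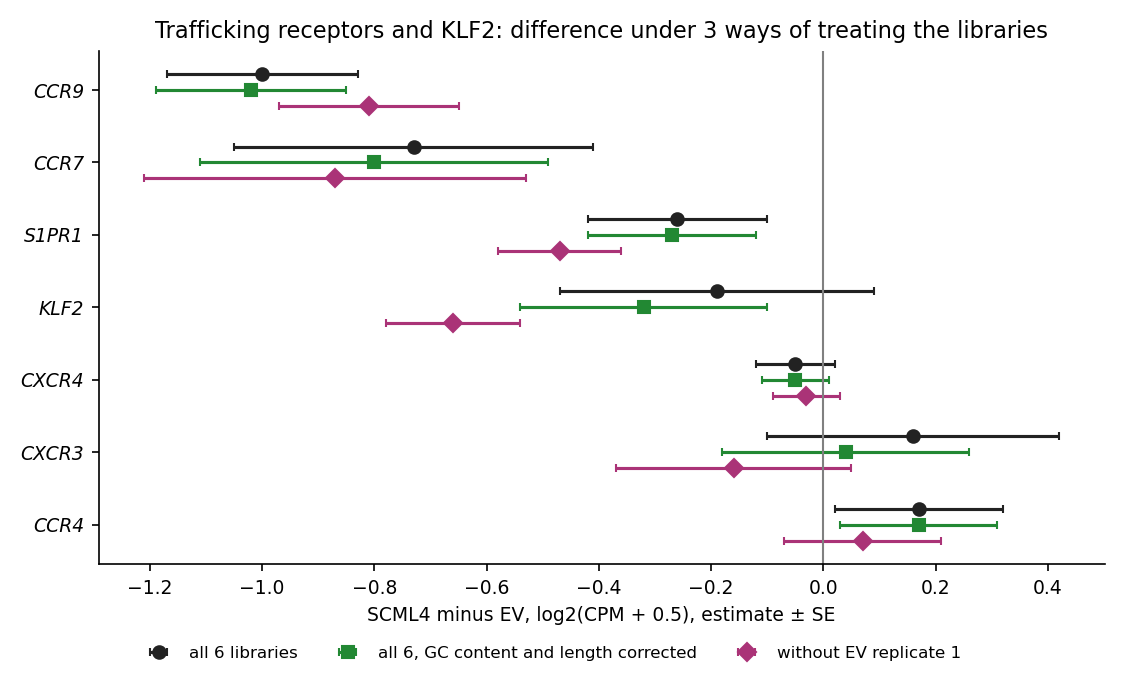
Difference SCML4 minus EV in log2(CPM + 0.5) for the 7 genes tested, as limma estimate ± SE, over all 6 libraries (circles), after correction for GC content and length (squares) and without EV replicate 1 (diamonds). CCR9 moves from -1.0 to -1.02 and -0.81, KLF2 from -0.19 to -0.32 and -0.66, and CXCR3 crosses 0.

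In the limma-trend fit over all genes with Benjamini-Hochberg adjustment, 1 gene of 14160 (0.00706%), SCML4, passed an adjusted p of 0.05, and none of the 7 genes did. CCR9 had an adjusted p of 0.162. The 736 genes (5.20%) with an unadjusted p under 0.05 include CCR9 and CCR7. Without EV replicate 1 the same fit called 14 genes (0.0989%), 4 lower (0.0282%) and 10 higher (0.0706%) in SCML4, and CCR9 and KLF2 were among the lower ones. Limma-voom without that library called 13 genes (0.0918%), 4 lower (0.0282%), again with CCR9 and KLF2, and 9 higher (0.0636%). A limma-voom fit with library weights, which weighted EV replicate 1 at 0.313 against 0.81 to 1.80, also called 14 genes (0.0989%), 3 lower (0.0212%) and 11 higher (0.0777%), and of the 7 members CCR9 alone was called. Because the genes were chosen with this contrast known, these calls are not independent support. Leaving out EV replicate 1 was likewise chosen with its position known.

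The position of EV replicate 1 was compared with the GC content of each gene's longest GENCODE 29 transcript. Relative to the mean of EV replicates 2 and 3, in log2(CPM + 0.5), it lay at -1.40 for KLF2 (65.2% GC), -0.96 for CXCR3 (61.4%), -0.62 for S1PR1 (48.9%), -0.43 for CCR7 (55.0%), -0.33 for CCR4 (45.8%), 0.04 for CXCR4 (43.9%) and 0.55 for CCR9 (47.9%). All genes tested had a median of -0.303 in the GC bin around 64.9% and of 0.02 in that around 47.0%. KLF2 and CXCR3 thus lay on the same side as other GC-rich genes and further out, and S1PR1 and CCR9 lay on opposite sides at nearly the same GC content. EV replicate 1 was below the other 5 libraries in 3 of the 7 genes (28.3% of all genes) and above them in 1 (27.9%). After each library had been corrected for GC content and length, the difference was -1.02 (SE 0.17) for CCR9, -0.80 (SE 0.31) for CCR7, -0.27 (SE 0.15) for S1PR1, -0.32 (SE 0.22) for KLF2 and 0.04 (SE 0.22) for CXCR3. What set EV replicate 1 apart, GC content included, was not tested.

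**Figure D3:**
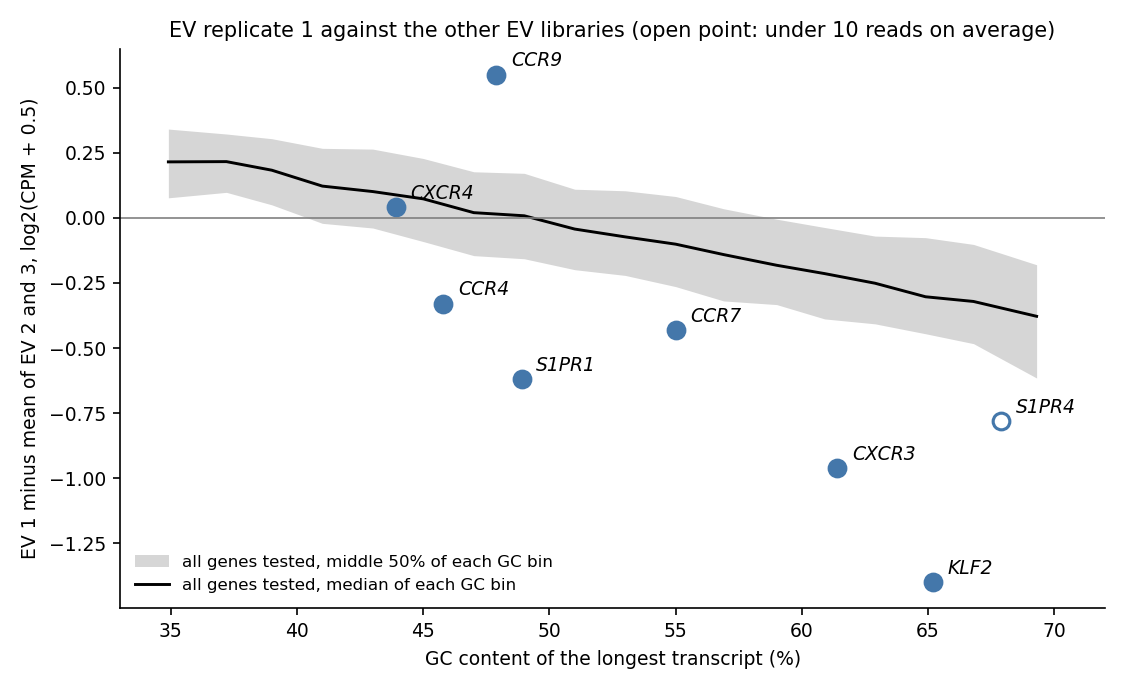
EV replicate 1 minus the mean of EV replicates 2 and 3 in log2(CPM + 0.5), against the GC content of the longest transcript, for 8 genes (points; S1PR4, open, had under 10 reads on average). The line is the median and the band the middle 50% of all genes tested in each GC bin. KLF2 at -1.40 lies far below the band and CCR9 at 0.55 above it.

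Levels were compared between genes per length, as CPM per kilobase of exonic length in GENCODE 29. The gene lengths behind the deposited FPKM could not serve for this, since that of CCR9, for example, is 734 bases against 2809 exonic bases. The exonic length counts all annotated exons of a gene. Which transcripts the cells made was not tested, so the order of genes depends on this length. CXCR4 stood at 231 CPM per kilobase in EV and 223 in SCML4, and KLF2 followed at 19.5 and 15.7. CCR9 stood at 9.32 in EV and 4.53 in SCML4, S1PR1 at 8.12 and 6.65, and CCR4 at 4.83 and 5.44. CXCR3 stood at 3.25 and 3.51, CCR7 at 1.27 and 0.732, and S1PR4 at 0.397 and 0.33. Over all 6 libraries CXCR4, at 219 to 237, was apart from every other gene. KLF2 (9.21 to 25.6), S1PR1 (5.83 to 9.67) and CCR9 (3.93 to 11.9) overlapped as neighbours, as did CCR9 and CCR4 (4.09 to 5.81) and, by a little, CCR4 and CXCR3. CCR7 (0.352 to 1.51) lay below CXCR3 (1.89 to 4.13) in every library and overlapped with S1PR4 (0.125 to 0.931). The EV mean of CCR9 was above that of CCR4, also without EV replicate 1 (8.05 against 5.19), while its SCML4 mean was below that of CCR4. Against S1PR1 the order in EV turned on EV replicate 1, where CCR9 stood at 11.9 and S1PR1 at 5.96. In EV replicates 2 and 3 CCR9 was below S1PR1, with a mean of 8.05 against 9.20, as it was in SCML4.

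**Figure D4:**
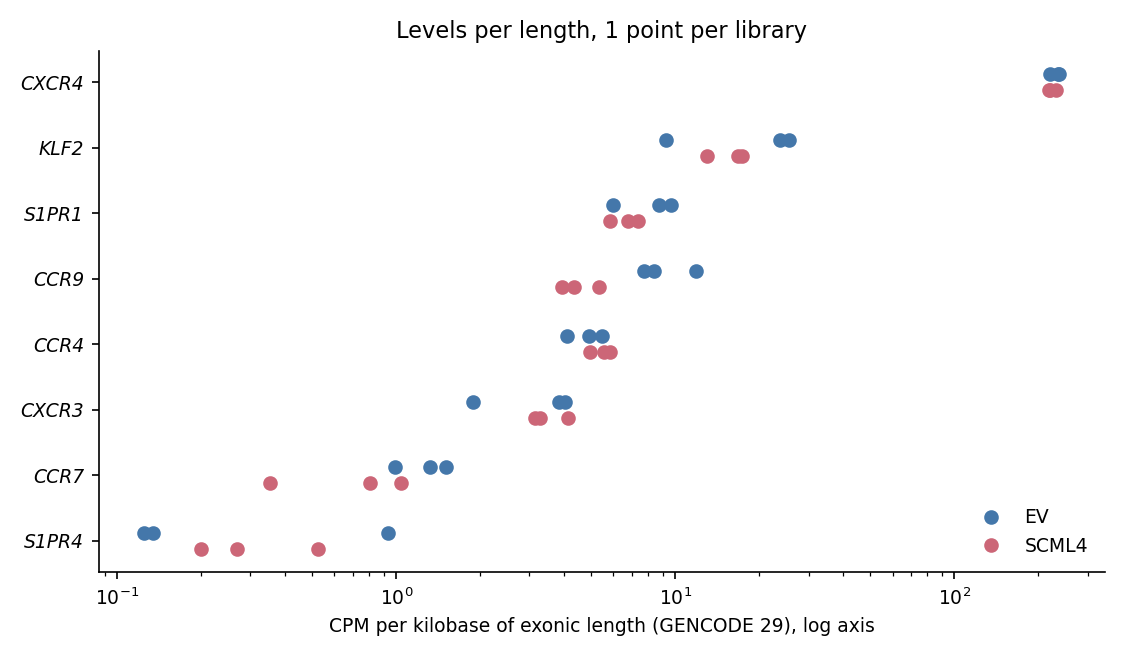
CPM per kilobase of GENCODE 29 exonic length on a log axis, 1 point per library, EV in blue and SCML4 in red, for the 8 genes with reads. CXCR4 lies at 219 to 237 in all libraries, the others at 25.6 or less.

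Genes around these receptors came from 7 lists with 116 genes in all, of which 79 had enough reads to be tested. In limma-trend over all genes 0 of the 79 passed an adjusted p of 0.05, the smallest adjusted p being 0.867, where 0.00706% of all genes passed. An unadjusted p under 0.05 was reached by 4 of the 79 and by 5.20% of all genes. The median difference over the lists was 0.04, or 0.01 without EV replicate 1. In 10 genes the SCML4 libraries lay above all EV libraries and in 3 below (6.29% and 5.36% of all genes).

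The ligands of these receptors were almost absent from the cells. Of 10 ligand genes 6 had 0 reads in every library and none reached a mean of 10 reads. CCL25, the CCR9 ligand, had 0 to 3 reads per library, and CCL19 and CCL21, the CCR7 ligands, 0 to 2.

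Of 18 other chemokine receptors 6 were tested, 5 with lower and 1 with higher means in SCML4 and a median of -0.02. Without EV replicate 1, 4 were lower and the median was -0.15. CX3CR1, the receptor for fractalkine, stood at 7.99, 14.8 and 15.1 CPM in EV and 8.05, 7.45 and 10.3 CPM in SCML4. It too had EV replicate 1 among the SCML4 libraries, with a log2 difference of -0.49 (SE 0.23, adjusted p = 0.867 in limma-trend) and of -0.78 without EV replicate 1.

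Among the other S1P receptors, enzymes and transporters 11 of 14 were tested, 7 with higher and 4 with lower means in SCML4 and a median of 0.08. This balance turned on EV replicate 1, without which 6 of the 11 were lower and the median was -0.02. S1PR3, an S1P receptor best known from vessels, stood at 9.76 CPM per kilobase in EV and 10.9 in SCML4, where S1PR1 stood at 8.12 and 6.65. These values rest on the exonic lengths used, 13578 bases for S1PR3 and 5223 bases for S1PR1. In CPM S1PR3 was 138, 128 and 132 in EV and 146, 149 and 148 in SCML4. The S1PR1 means were 42.4 CPM in EV and 34.8 CPM in SCML4, so how the 2 receptors compare depends on the length. The groups of S1PR3 did not overlap, with a log2 difference of 0.15 (SE 0.07, adjusted p = 0.867), or 0.18 without EV replicate 1. SGPP1, an S1P phosphatase, stood at 57.2 ± 4.02 and 63.5 ± 0.923 CPM (mean ± SD, n = 3 each), with a difference of 0.15 (SE 0.09), or 0.19 without EV replicate 1.

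Of 35 genes of G protein signalling, desensitisation and cell migration 32 were tested, 22 with higher and 10 with lower means in SCML4. Their median was 0.09, and 0.02 without EV replicate 1. GRK6, a kinase that desensitises chemokine receptors, stood at 101, 120 and 119 CPM in EV and 137, 135 and 137 CPM in SCML4. The groups did not overlap, and the difference was 0.27 (SE 0.08, adjusted p = 0.867 in limma-trend), or 0.19 without EV replicate 1. RGS19, which shortens G protein signals, had one of 0.28 (SE 0.14), or 0.10 without EV replicate 1.

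Of 15 genes that control KLF2 or belong to its family 13 were tested, 9 with higher and 4 with lower means in SCML4 and a median of 0.06, or 0.04 without EV replicate 1. KLF6, a relative of KLF2, stood at 36.3 ± 2.14 CPM in EV and 42.3 ± 2.36 CPM in SCML4 (mean ± SD, n = 3 each), a difference of 0.22 (SE 0.10), or 0.18 without EV replicate 1. FOXO4, a forkhead factor restrained by AKT, stood at 17.8 ± 1.71 and 21.2 ± 0.654 CPM, a difference of 0.25 (SE 0.13), or 0.23 without EV replicate 1. FOXO1, the forkhead factor known to drive KLF2, had 57 to 68 reads per library and a difference of -0.03, or -0.08 without EV replicate 1. FOXO1 and ITGB7, described below, were named, outside the rule, for their known tie to KLF2 after their values had been seen.

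In the list of homing adhesion genes and CD69 10 of 12 were tested, 6 with higher and 4 with lower means in SCML4. Their median was 0.06, and 0.01 without EV replicate 1. CD69, an activation antigen that binds S1PR1 and removes it from the cell surface, stood at 17.3, 17.3 and 16.9 CPM in EV and 19.1, 21.0 and 27.8 CPM in SCML4. Its groups did not overlap, with a log2 difference of 0.37 (SE 0.15, limma-trend adjusted p = 0.867), or 0.38 without EV replicate 1. SELPLG, the ligand of P-selectin, had a difference of 0.20 (SE 0.11), or 0.04 without EV replicate 1. ITGB7, an integrin chain of gut homing also known to depend on KLF2, had 19 to 57 reads per library and a difference of -0.31, or -0.69 without EV replicate 1.

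All 7 tested genes among 12 other receptors of lymphocyte positioning had lower means in SCML4, where 47.7% of all genes tested were lower. Their differences ranged from -0.51 to -0.02, with a median of -0.12 against 0.01 for all genes. Without EV replicate 1, 6 of 7 were lower (48.2% of all genes), with a median of -0.18 against 0.01. LPAR6, a lysophosphatidic acid receptor, stood at 25, 25.9 and 28.6 CPM in EV and 16, 24.2 and 22.9 CPM in SCML4. Its groups did not overlap, with a log2 difference of -0.35 (SE 0.15, limma-trend adjusted p = 0.867), or -0.39 without EV replicate 1. GPR18, a lymphocyte receptor, had a difference of -0.51 (SE 0.26), or -0.54 without EV replicate 1, from 15 to 34 reads per library.

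**Figure D5:**
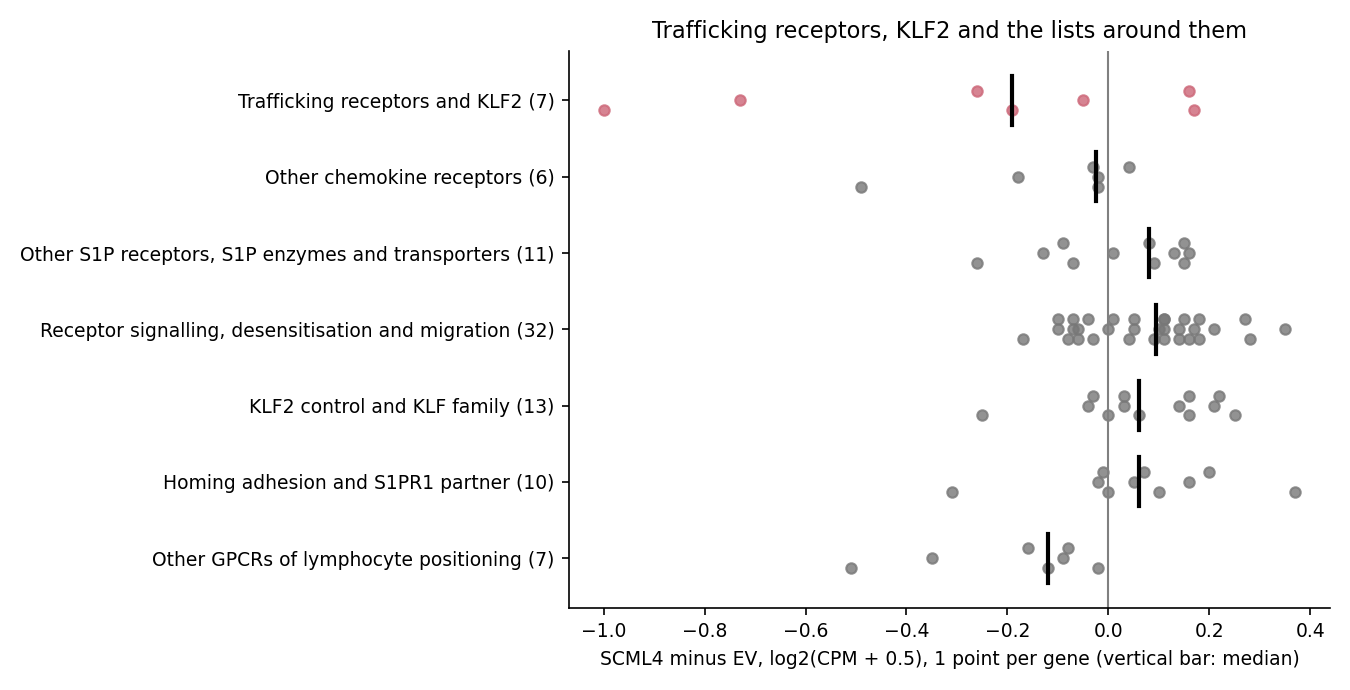
Difference SCML4 minus EV in log2(CPM + 0.5), 1 point per gene tested, with the number of genes in brackets and the median as a vertical bar, for the 6 receptors and KLF2 that were tested (red) and 6 lists around them (grey). The ligand list had no gene to test. CCR9 at -1.0 and CCR7 at -0.73 lie to the left of all genes of the lists. The lowest of these is GPR18 at -0.51 over all 6 libraries. The members were chosen with the low CCR9 and CCR7 known. Without EV replicate 1, not drawn, CCR9 stood at -0.81, CCR7 at -0.87 and the lowest list gene, CX3CR1, at -0.78.

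The genes whose levels over the 6 libraries were most like those of CCR9, by Pearson correlation of log2(CPM + 0.5) among 11406 genes averaging 50 reads or more, were MLEC (r = 0.994), SNX16 (0.994) and C17orf100 (0.992). SNX16, a sorting nexin of endosomes, stood at 24.0, 20.9 and 19.5 CPM in EV and 14.1, 17.3 and 15.2 CPM in SCML4, the same order of libraries as CCR9. As many as 182 genes had an r of 0.9 or more with CCR9, so that likeness over 6 libraries singles out few. For CCR7 the 3 genes were ADD3 (0.986), RNF139-DT (0.976) and NFYC-AS1 (0.974), with 49 genes at 0.9 or more. ADD3, an adducin of the membrane skeleton, stood at 121, 132 and 133 CPM in EV and 86.3, 116 and 110 CPM in SCML4. These correlations share the libraries and their depth and are given as a description.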

How the data were processed

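RNA-seq was made from 6 libraries of Jurkat cells, 3 EV and 3 SCML4, with groups and replicate numbers taken from the titles. TRIzol extraction and a SMARTer mRNA-seq kit are named, per the labels' protocols, and FastQC, STAR, SAMtools and hg19, per the submitters' processing notes. The sources used here do not name the counting tool, its strand setting, the annotation or the lengths. The authors deposited FPKM, 1 column per library, per the file headers.

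Whole reads and library totals were recovered from the steps of the FPKM values. For each of the 23897 genes with a value above 0, all 6 values fitted whole reads to within 0.002 of a read, with more room at high counts. Reads that share a divisor may be understated. SCML4 minus EV was fitted by limma-trend (limma 3.58.1, R 4.3.3) on log2(CPM + 0.5) for the 14160 genes that averaged 10 reads or more, with Benjamini-Hochberg adjustment over all of them and a threshold of 0.05. The script was tested on simulated data.

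The members and lists were chosen with earlier results of these data known. Named were SCML4, the members, the 2 genes per list with the lowest unadjusted p, and for CCR9 and CCR7 the 3 genes of highest correlation, with other names marked as such; 1 gene that the rule names is not reported here. GENCODE 29 (GRCh38) gave lengths, GC content and overlaps, known for 99.91% of the genes tested, and no coordinates, since the files use hg19. Alternatives were other pseudocounts, filters, scalings, tests and prior settings, the deposited FPKM, a replicate block, a lowess correction (span 0.3) for GC content and length, and leaving out each library. Counts of 0 and counting intervals cover counting error only. Libraries of a group differed by more than sampling noise (chi-square per gene 2.60 to 11.1), so none was counted as a duplicate.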

Additional observations from a re-analysis of the deposited data

How the results depend on the processing

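Over 20 alternatives the difference of CCR9 ranged from -1.12 to -0.81, that of CCR7 from -1.03 to -0.39 (19 alternatives), that of S1PR1 from -0.47 to -0.12, that of CXCR4 from -0.08 to -0.03 and that of CCR4 from 0.07 to 0.27, each without a change of sign. KLF2 ranged from -0.66 to 0.07, with 2 changes of sign, and CXCR3 from -0.18 to 0.34, with 3. Adjusted p values of CCR9 ranged from 0.0243 to 0.949. The number of genes called, 1 over all libraries, was 0 on deposited FPKM, 2 with median-of-ratios scaling, 3 with a robust prior, 3 with GC content and length corrected, 14 with library weights in limma-voom and 13 in limma-voom without EV replicate 1. Leaving out each library in turn gave 1 to 14, and 14 was reached without EV replicate 1, where 11 genes were shared with the weighted fit. Of the members 0 were called, but 1 with library weights, 2 in limma-voom without EV replicate 1 and 0 to 2 when each library was left out. Members with lower means numbered 4 to 6 of 7 when each library was left out, and 0 pathway genes were called in any alternative. The cause of these changes was not tested beyond the values given.

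With the replicate number as a block 2 genes were called. The numbers are not said to pair the libraries, and same-numbered libraries correlated at -0.053, -0.095 and -0.044 in their deviations from the group means, so no pairing was used. Depth limits CCR7, with 8 to 34 reads, and S1PR4, with 2 to 15.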
